A study of Mus musculus with 8 samples.

Results

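Transcripts of 41 endothelial and angiogenic genes were examined in bulk RNA-seq of brown adipose tissue (BAT), the heat-producing fat depot of the mouse. The genes were chosen by name, as known markers, receptors, ligands and transcription factors of blood and lymphatic vessels, and they are 41 of the 31053 genes listed in the count table. Each of them had at least 1 count. The libraries came from C57BL6/J mice labelled as 8 weeks old, 4 of them labelled WT and 4 labelled Cd36KO. CD36 is a scavenger receptor that binds and takes up lipids, and it is made by macrophages, adipocytes and capillary endothelium. The labels do not say in which cells Cd36 was deleted. The study describes a germline knockout and a myeloid deletion made by crossing floxed Cd36 mice to a Csf1r-driven Cre, attributes its BAT transcriptome to the myeloid line, and gives the labelled age in a figure legend but a later age at sacrifice in its methods. A figure legend of the study gives as many mice per group for this transcriptome as there are libraries. The Cd36KO libraries include 1 whose count column is not numbered, called the unnumbered Cd36KO library. Cd36KO values are given with it first, followed by replicates 2, 3 and 4.

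Endothelial cells line every vessel and hold together through junction proteins such as VE-cadherin. Vessel growth is driven by vascular endothelial growth factors (VEGFs), secreted ligands that act on the receptor kinases VEGFR1, VEGFR2 and VEGFR3, while the Tie receptors, Notch ligands and the apelin and adrenomedullin receptors shape the new vessel. BAT is among the most densely vascularised tissues, brown adipocytes are a source of VEGF-A, and their capillaries deliver fatty acids and oxygen for heat production.

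Total counts ranged from 2679785 to 4097953 per library. Cd36 itself had 2796, 2958, 3505 and 2412 normalized counts in WT replicates 1 to 4 and 1926, 2109, 2384 and 1930 in the Cd36KO libraries, where a normalized count is the count divided by the library's size factor. All Cd36KO values lay below all WT values, with a log2 fold change of -0.48 (95% interval -0.79 to -0.18; DESeq2 adjusted p = 0.060), so Cd36 transcripts were still abundant in tissue labelled as knockout. The labels also give the cell type as stromal vascular fraction, the cells left when adipocytes are removed, but the adipocyte genes Ucp1 and Cidea reached 12310 and 18750 normalized counts. The study's methods state that all mice were male, yet Xist had 772 to 1588 counts in each library while Kdm5d, Uty and Eif2s3y of the Y chromosome had 0, and Ddx3y was counted only in WT replicate 1, with 3 counts. Skeletal muscle markers summed to 55300 normalized counts in WT replicate 1 and to between 49.1 and 11750 in the other 7 libraries, and white fat markers to between 2688 and 3786 in WT replicates 2 to 4 and between 368 and 574 in the other 5. The part of these tissue markers in the values below was not tested, except as covariates. White fat markers were low in every Cd36KO library and, among the WT libraries, only in WT replicate 1. Fold changes with white fat markers as a covariate therefore cannot be cleanly told apart from genotype.

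None of the 41 genes passed the threshold of an adjusted p of 0.05 in either direction (DESeq2, 4 against 4 libraries). An adjusted p was available for 35 of them, and the other 6 were too low in count for DESeq2's filter. Across all genes with an adjusted p, 2.95% passed, with 1.42% higher and 1.53% lower in Cd36KO. At an unadjusted p under 0.05, 6 of the 35 passed, 4 higher and 2 lower. That is 17.1%, against 15.6% of all genes with an adjusted p. The edgeR quasi-likelihood test called 0 of the 34 it tested (0.143% of all its genes), with 7 at an unadjusted p under 0.05 (16.1% of all its genes), and limma on the authors' log2 values called 0 (0.0461% of all its genes), with 4 of the 41 at an unadjusted p under 0.05 (11.5% of all its genes). Of the 35 genes, 18 had a positive and 17 a negative log2 fold change. Their median log2 fold change was 0.02, against -0.01 for all genes with an adjusted p.

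A missed threshold does not show that the groups were alike. For 20 of the 35 genes the 95% interval of the log2 fold change stayed within 1 unit either way, that is within a 2-fold change, and for 15 it reached past that. The plot of fold changes shows the intervals for each gene by role.

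**Figure D1:**
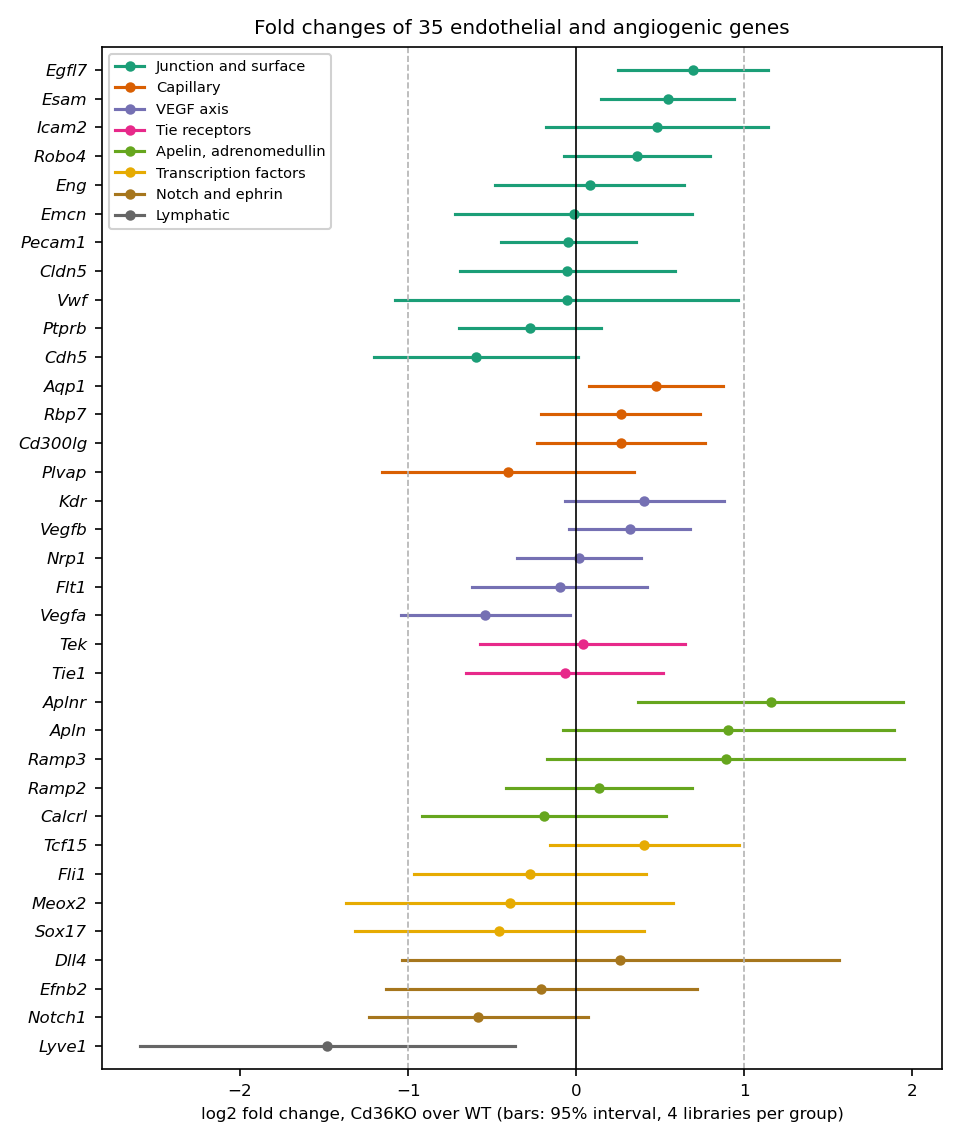
Log2 fold change of Cd36KO over WT (x axis) for the 35 genes with an adjusted p (rows, grouped and coloured by role); points are DESeq2 estimates, bars their 95% intervals over 4 libraries per group, and dashed lines mark a log2 fold change of 1 either way. Estimates run from -1.48 for Lyve1 to 1.16 for Aplnr, and 18 lie above 0 and 17 below.

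The endothelial content of the libraries, as far as transcripts show it, varied as much within a group as between them. The sum of 12 general endothelial markers (Pecam1, Cdh5, Kdr, Flt1, Emcn, Esam, Cldn5, Egfl7, Tie1, Tek, Robo4 and Vwf) was 2226, 1798, 1791 and 1599 normalized counts in WT replicates 1 to 4, and 2495, 1746, 2643 and 2065 in the unnumbered library and replicates 2, 3 and 4 of Cd36KO. The groups overlapped, with WT replicate 1 above 2 of the Cd36KO libraries and Cd36KO replicate 2 below 3 of the WT libraries. As a plain sum it is weighted to the most abundant markers. These were Kdr, Egfl7, Flt1 and Esam, with means of 507.4, 440.4, 309.5 and 219.5 normalized counts over all libraries, and single markers differed in direction, as given below. In bulk tissue, fewer endothelial cells and less RNA per endothelial cell cannot be told apart. Libraries also stood apart across the list. Among the 30 genes that averaged 20 or more normalized counts, WT replicate 4 held the lowest WT value for 14 genes (46.7%, against 28.7% of all 8219 genes at that level) and Cd36KO replicate 2 the lowest Cd36KO value for 16 (53.3%, against 27.6%). WT replicate 1 held the highest WT value for 14 (46.7%, against 27.4%) and Cd36KO replicate 3 the highest Cd36KO value for 13 (43.3%, against 21.6%). WT replicate 3 was highest of its group for 11 and lowest for 10. Leaving out WT replicate 4 or Cd36KO replicate 2 brought genes past the threshold, as given gene by gene below.

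**Figure D2:**
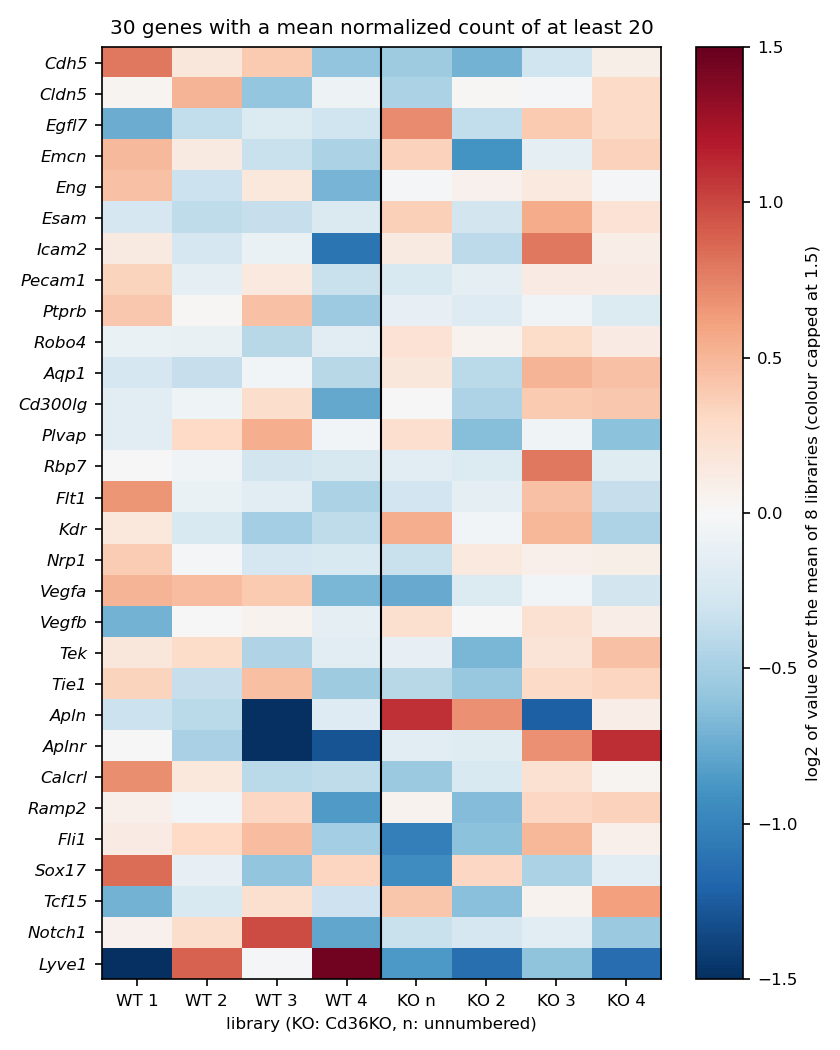
Level of the 30 genes that averaged 20 or more normalized counts (rows, by role) in each of 8 libraries (columns), as log2 of the value over the mean of the 8 libraries (colour, capped at 1.5 either way). WT 4 and KO 2, which hold the lowest value of their group for 14 and 16 of the 30 genes, show as mostly blue columns, and KO 3, highest in its group for 13, as a mostly red one.

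By level, the genes spanned a wide range. Per kilobase of annotated exon, Vegfb was highest with a mean of 555 normalized counts per kilobase, followed by the water channel Aqp1 with 527, the capillary retinol-binding protein Rbp7 with 426, the transcription factor Tcf15 with 148 and the secreted factor Egfl7 with 123. Sox18 and Prox1 were lowest, at 0.268 and 0.240 normalized counts per kilobase, and were at 0 in 6 and 3 libraries. If the digital mRNA-seq kit reads mostly transcript ends, which the sources used here do not state, division by length would understate long transcripts.

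For the genes with a RefSeq promoter on GRCm38.p6, the 250 bases before the start were searched for motifs of factors that act in endothelium. A promoter was found for 24 of the 41 genes, 30 in all. The ETS class, bound by the members Erg and Fli1 among many other factors, was searched as AGGAAG or CGGAAG on both strands and was present in 14 of the 30 (46.7%), against 39.2% of all 32851 promoters of that length. The SOX class, searched as ACAAT on both strands, was present in 20% against 27.7%, and the core of the hypoxia response element, searched as ACGTG on both strands, in 6.67% against 16.6%. A match describes the letters only and shows no binding. Shown here are the promoters of Aqp1 and Vegfa, which had an unadjusted p under 0.05 in opposite directions. Of the 2 Vegfa windows, the upstream one is shown, because it lies outside annotated exons, as the Aqp1 window does, while the other has 218 of its 250 bases in exons. The windows shown are at chr6:55336049-55336298 on the plus strand and chr17:46032378-46032627 on the minus strand, each 5′ to 3′ in lower case, with capitals marking an ETS class match.
Aqp1: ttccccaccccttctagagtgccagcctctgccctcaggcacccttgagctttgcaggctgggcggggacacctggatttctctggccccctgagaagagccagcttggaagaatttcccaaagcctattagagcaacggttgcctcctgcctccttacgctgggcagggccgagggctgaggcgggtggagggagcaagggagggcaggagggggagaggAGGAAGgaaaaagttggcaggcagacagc
Vegfa: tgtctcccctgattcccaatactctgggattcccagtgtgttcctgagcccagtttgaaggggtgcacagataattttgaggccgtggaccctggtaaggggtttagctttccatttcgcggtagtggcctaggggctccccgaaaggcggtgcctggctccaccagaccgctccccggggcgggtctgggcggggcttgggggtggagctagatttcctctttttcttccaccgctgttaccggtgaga
The Aqp1 window held 1 ETS class match, 29 bases before the start, and the Vegfa window shown none, which says only that these letters are not in this window. The Vegfa window not shown held no ETS class match either, and 1 match to the hypoxia response core, as did the Rbp7 window. Among the other genes whose values are given by library, the windows of Robo4 and Rbp7 held 1 and 2 matches, the 3 Egfl7 windows 3, 1 and 0 from upstream to downstream, and those of Vegfb and Kdr none.

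The secreted VEGF ligands had log2 fold changes of opposite sign, neither past the threshold. Vegfa, the main growth signal for blood vessels (chr17:46016993-46032369), had 688, 664, 632 and 300 normalized counts in WT replicates 1 to 4, and 286, 418, 467 and 399 in the unnumbered library and replicates 2, 3 and 4 of Cd36KO. WT replicates 1 to 3 lay above every Cd36KO library, while WT replicate 4 lay below all but the unnumbered one. The means were 571 ± 182 for WT and 393 ± 76.5 for Cd36KO (n = 4 each, SD), a log2 fold change of -0.54 (95% interval -1.04 to -0.04; DESeq2 adjusted p = 0.271). Without WT replicate 4 the log2 fold change was -0.75 with an adjusted p of 0.0031, and across the other 7 libraries left out in turn the adjusted p was 0.214 to 0.678. With the brown adipocyte marker score as a covariate, the Vegfa log2 fold change was 0.04, and with the white fat score it was -1.27 (adjusted p = 0.065). The brown adipocyte markers summed to 55220 normalized counts in WT replicate 4 and to 35570, 45050 and 40280 in WT replicates 1 to 3, against 47440 to 50200 in Cd36KO. Of these 9 markers, Ucp1, Cidea and Cox7a1 were called higher in Cd36KO (log2 fold changes 0.82, 0.97 and 0.59), against 1.42% of all genes. Log2 fold changes were positive for 5 of the 9 and negative for 4. The negative ones were Fabp4 -0.73 (DESeq2 adjusted p = 0.076), Plin1 -0.45, Adipoq -0.27 and Lipe -0.19.

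Vegfb, a VEGFR1 ligand tied to fatty acid transport rather than to vessel sprouting, had 547, 898, 925 and 806 normalized counts in WT replicates 1 to 4 and 1054, 896, 1047 and 959 in Cd36KO. WT replicate 1 was the low library, and Cd36KO replicate 2 lay below WT replicates 2 and 3. The log2 fold change was 0.32 (95% interval -0.04 to 0.68; adjusted p = 0.408). It was 0.17 without WT replicate 1 and 0.72 with the white fat score as a covariate. The ratio of Vegfa to Vegfb normalized counts was 1.26, 0.74, 0.683 and 0.372 in WT replicates 1 to 4, and 0.272, 0.466, 0.446 and 0.416 in Cd36KO. It was above every Cd36KO value in WT replicates 1 to 3 and within the Cd36KO range in WT replicate 4.

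Of the VEGF receptors, Kdr (VEGFR2, the main signalling receptor on blood endothelium) had 565, 432, 356 and 391 normalized counts in WT replicates 1 to 4 and 739, 491, 716 and 368 in Cd36KO. The unnumbered library and replicate 3 of Cd36KO were high, and Cd36KO replicate 4 lay within the lower WT values. The log2 fold change was 0.41 (95% interval -0.07 to 0.88; adjusted p = 0.426), 0.27 without the unnumbered library, 0.57 without Cd36KO replicate 4 and 0.06 with the white fat score as a covariate. Flt1 (VEGFR1, which binds both VEGF-A and VEGF-B) had a log2 fold change of -0.10, ranging from 223 to 490 normalized counts in WT and 243 to 419 in Cd36KO. The co-receptor Nrp1 had 0.02, with an interval of -0.35 to 0.38. The lymphatic receptor Flt4 (VEGFR3) had 4 to 20 counts per library and no adjusted p.

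Among the 12 junction and surface genes, Egfl7 and Esam were the genes furthest on the higher side, and 5 of the 11 with an adjusted p had positive and 6 negative log2 fold changes. Egfl7, a matrix factor secreted by endothelium (chr2:26580014-26593120), had 264, 342, 382 and 358 normalized counts in WT replicates 1 to 4 and 720, 342, 579 and 536 in Cd36KO. The unnumbered library and replicates 3 and 4 of Cd36KO lay above all WT libraries, and Cd36KO replicate 2 lay within the WT range. The means were 337 ± 51.3 for WT and 544 ± 156 for Cd36KO (n = 4 each, SD). The fold was 1.62 (95% interval 1.19 to 2.20; DESeq2 adjusted p = 0.063), the smallest adjusted p of the 41 genes, and edgeR gave an adjusted p of 0.158. Without Cd36KO replicate 2 the log2 fold change was 0.86 with an adjusted p of 0.0028, and without WT replicate 4 it was 0.72 with 0.040. Without the unnumbered library it was 0.53 with an adjusted p of 0.322, and without both that library and WT replicate 1 it was 0.43 with 0.506. Exons of Egfl7 share 64 bases with those of Agpat2 on the opposite strand, a lipid synthesis gene with 17409 counts in all, and whether counting used strand is not stated.

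Esam, an adhesion molecule of endothelial tight junctions chosen for naming with its values known, had 184, 169, 173 and 189 normalized counts in WT replicates 1 to 4 and 282, 182, 322 and 255 in Cd36KO. The WT libraries were close together, and Cd36KO replicate 2 alone of the Cd36KO libraries lay among them. The fold was 1.46 (95% interval 1.11 to 1.91; DESeq2 adjusted p = 0.119). Without Cd36KO replicate 2 the log2 fold change was 0.68 with an adjusted p of 0.016. Without the unnumbered library it was 0.51 with 0.385, and without Cd36KO replicate 3 it was 0.43 with 0.290. With the white fat score as a covariate it was 0.19 with an adjusted p of 0.799.

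Robo4, a guidance receptor that stabilises endothelium (chr9:37401897-37415115), was the only one of the 30 genes at that level (20 or more normalized counts on average) whose groups did not overlap, against 9.44% of all genes at that level. It had 65.9, 65.4, 52.9 and 63.3 normalized counts in WT replicates 1 to 4 and 82.4, 73.6, 85.9 and 77.0 in Cd36KO. The difference was small, with a log2 fold change of 0.36 (95% interval -0.07 to 0.79; adjusted p = 0.447). It kept that sign in each of the 18 alternatives, with values from 0.19 to 0.45, and passed the threshold in none of those that gave an adjusted p.

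The pan-endothelial markers Pecam1 and Cdh5 had log2 fold changes below 0. Pecam1, the adhesion molecule CD31, had 218, 158, 192 and 137 normalized counts in WT replicates 1 to 4 and 148, 156, 188 and 188 in Cd36KO. The Cd36KO values lay within the WT range, and the log2 fold change was -0.05 (95% interval -0.45 to 0.35; adjusted p = 0.950). With the white fat score as a covariate it was -0.66 with no adjusted p, and with the brown adipocyte score 0.20. Cdh5 (VE-cadherin) had 136, 89.2, 104 and 52.4 in WT replicates 1 to 4 and 54.6, 48.3, 64.4 and 83.9 in Cd36KO. WT replicates 1 to 3 were above all Cd36KO libraries and WT replicate 4 among the lowest, the same arrangement as for Vegfa. Its log2 fold change was -0.59 (95% interval -1.20 to 0.01; adjusted p = 0.336). Without WT replicate 4 it was -0.79 with an adjusted p of 0.054, and without WT replicate 1 it was -0.37 with 0.705. It was -0.07 with the brown adipocyte score as a covariate. With the white fat score, which largely followed genotype, it was -1.70 with no adjusted p. For the other members of this group with an adjusted p, Icam2 had 0.48, Eng 0.08, Emcn -0.01, Cldn5 -0.05, Vwf -0.06 and Ptprb (the phosphatase VE-PTP) -0.27 as log2 fold changes. Ecscr had 1 to 21 counts per library and no adjusted p.

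**Figure D3:**
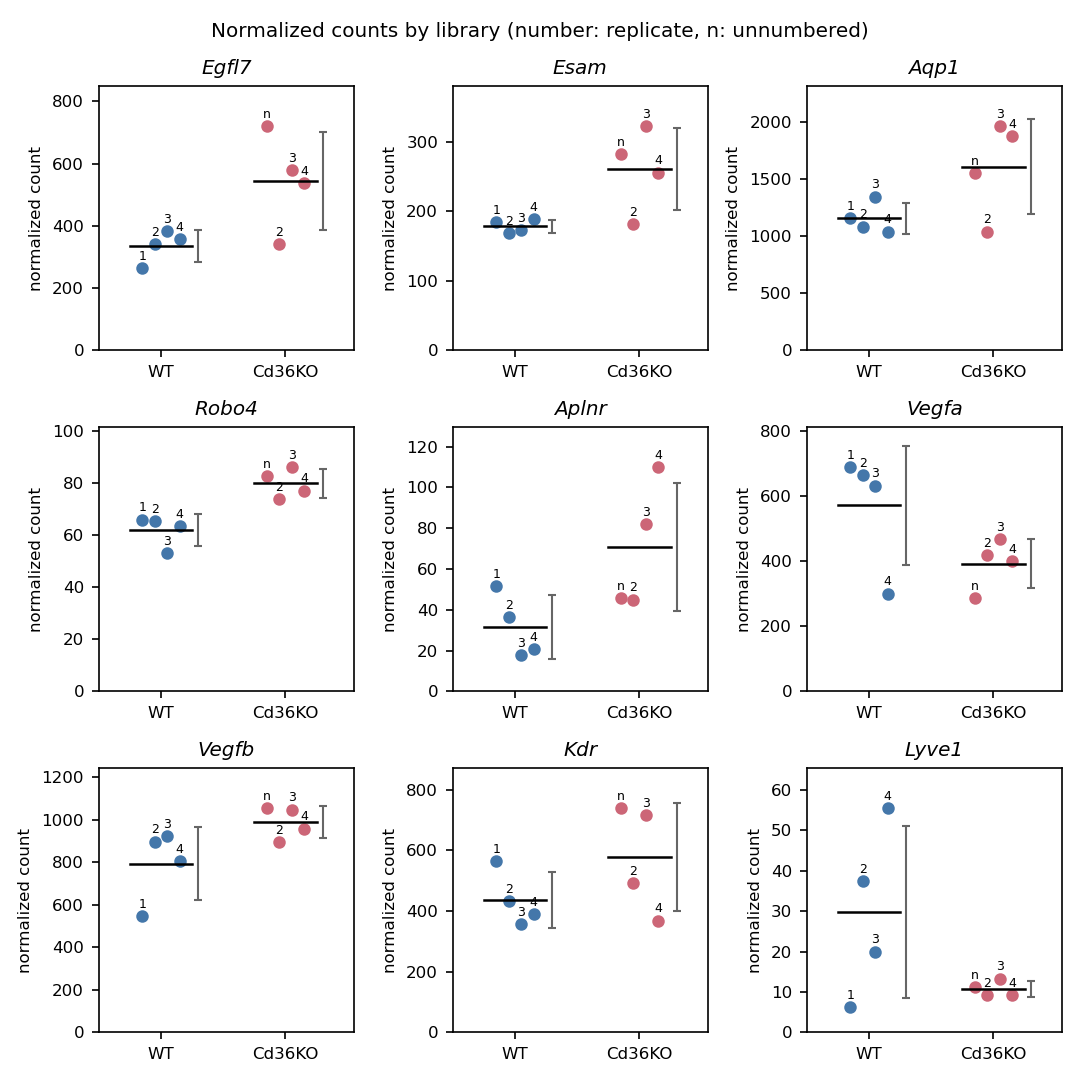
Normalized counts (y axis, from 0) of 9 genes in each library; the number beside a point is its replicate, n the unnumbered Cd36KO library, black lines are group means and grey bars the SD over 4 libraries. Cd36KO replicate 2 sits among the WT libraries for Egfl7, Esam and Aqp1, WT replicate 4 sits among the Cd36KO libraries for Vegfa, and only for Robo4 do the groups not overlap.

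The 4 genes of specialised capillaries included some of the highest levels. Aqp1, a water channel of capillary endothelium and red cells, had 1163, 1087, 1348 and 1041 normalized counts in WT replicates 1 to 4 and 1555, 1043, 1966 and 1878 in Cd36KO. As for Egfl7 and Esam, Cd36KO replicate 2 lay within the WT range and the other 3 Cd36KO libraries above it. The fold was 1.39 (95% interval 1.05 to 1.83; DESeq2 adjusted p = 0.204), and without Cd36KO replicate 2 the log2 fold change was 0.64 with an adjusted p of 0.011. Without the unnumbered library it was 0.49 with 0.406, and without Cd36KO replicate 3 it was 0.37 with 0.380. Erythroid markers summed to 4615 to 8591 normalized counts in WT, and to 16260 in the unnumbered library and 4836, 6939 and 8770 in replicates 2, 3 and 4 of Cd36KO, and their part in the Aqp1 values was not tested.

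Rbp7 had 306, 295, 253 and 258 normalized counts in WT replicates 1 to 4 and 273, 266, 529 and 270 in Cd36KO. Only Cd36KO replicate 3 lay outside the WT range, and the log2 fold change of 0.27 (adjusted p = 0.656) turned to -0.04 without that library. Cd300lg (nepmucin, a capillary and venule adhesion molecule) had a log2 fold change of 0.27 and Plvap, which forms the diaphragms of fenestrated capillaries, -0.41.

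The apelin and adrenomedullin group held the largest positive log2 fold changes, with 4 of its 5 genes positive and a median of 0.89, though none passed the test. Aplnr, the receptor for apelin, was also chosen with its values known. It had 51.5, 36.5, 17.6 and 20.8 normalized counts in WT replicates 1 to 4 and 45.7, 44.9, 81.8 and 109.8 in Cd36KO. Replicates 3 and 4 of Cd36KO were above all WT libraries, while the unnumbered library and replicate 2 lay below WT replicate 1. The fold was 2.23 (95% interval 1.29 to 3.85; DESeq2 adjusted p = 0.091). Without WT replicate 1 the log2 fold change was 1.49 with an adjusted p of 0.0097, and without Cd36KO replicate 4 it was 0.85 with no adjusted p.

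The ligand Apln had 7.06 to 18.8 normalized counts in WT and 9.21 to 45.7 in Cd36KO, a log2 fold change of 0.91 (95% interval -0.08 to 1.89). Ligand and receptor did not follow each other across the Cd36KO libraries, since Cd36KO replicate 3 had the lowest Apln value of its group and the second highest Aplnr value. Ramp3, which tunes the calcitonin-like receptor to adrenomedullin, had 0.89 (95% interval -0.17 to 1.95), at 4.95 to 32.7 normalized counts per library. The receptor Calcrl had -0.19 and Ramp2 0.13. Ramp2 shares 1103 exonic bases on the same strand with Vps25 in the annotation, so how reads there were assigned adds uncertainty to its value.

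The Tie receptors, which respond to angiopoietins and keep vessels quiescent, had log2 fold changes close to 0. Tek (Tie2) had a log2 fold change of 0.04 (95% interval -0.57 to 0.65) and Tie1 -0.07 (-0.66 to 0.52). Both had lower values in Cd36KO replicate 2 than in the other Cd36KO libraries, at 31.1 and 70.2 normalized counts.

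Of the 7 transcription factors, Tcf15, a partner of Meox2 in heart and fat capillaries, was by far the most abundant. It had 88.5, 124, 172 and 117 normalized counts in WT replicates 1 to 4 and 194, 94.4, 150 and 222 in Cd36KO. The unnumbered library and replicate 4 of Cd36KO were the highest, and Cd36KO replicate 2 was next to lowest of all 8 libraries. The log2 fold change was 0.41 (95% interval -0.15 to 0.97; adjusted p = 0.525), 0.27 without WT replicate 1 and 0.23 without Cd36KO replicate 4. Meox2 itself had -0.40, the ETS factor Fli1 -0.28 and Sox17, an arterial factor, -0.46, none past the threshold. Erg, Sox7 and Sox18 had at most 6, 10 and 3 counts in a library and no adjusted p.

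In the Notch and ephrin group, the receptor Notch1 had a log2 fold change of -0.58 (95% interval -1.23 to 0.07; adjusted p = 0.399), with WT values from 41.5 to 141 normalized counts and Cd36KO values from 48.8 to 63.4, all within the WT range. The tip cell ligand Dll4 had 0.26 with an interval of -1.04 to 1.56, and the arterial ligand Efnb2 -0.21 with -1.13 to 0.72.

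Lyve1 and Prox1 were the lymphatic genes. Lyve1, a hyaluronan receptor of lymphatic endothelium that some tissue macrophages also make, was likewise chosen with its values known. It had 6.32, 37.4, 19.99 and 55.4 normalized counts in WT replicates 1 to 4, and 11.1, 9.21, 13.3 and 9.15 in Cd36KO. WT replicates 2 to 4 lay above every Cd36KO library and WT replicate 1 below all of them. The fold was 0.358 (95% interval 0.166 to 0.776; DESeq2 adjusted p = 0.141), and without WT replicate 1 the log2 fold change was -1.82 with an adjusted p of 0.0076. Without WT replicate 4, its highest library, it was -0.998 with no adjusted p. Prox1, the transcription factor that defines lymphatic identity, had 0 to 6 counts per library.

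Macrophage markers were measured beside Lyve1. Of 13, 10 had an adjusted p and 1 was called (2.95% of all genes), Cd163, a haemoglobin scavenger receptor of resident macrophages. It had 46.9, 90.9, 115 and 59.3 normalized counts in WT replicates 1 to 4 and 36.8, 42.6, 27.6 and 25.2 in Cd36KO, with a log2 fold change of -1.25 (DESeq2 adjusted p = 0.018). The mannose receptor Mrc1, chosen with its values known, had -0.85 (adjusted p = 0.191). Among the 10, 6 log2 fold changes were negative and 4 positive (Aif1 0.37, Lyz2 0.19, C1qa 0.19 and C1qb 0.10), with a median of -0.02. The sum of all 13 macrophage markers was 708 to 1255 normalized counts in WT and 766 to 1138 in Cd36KO, and none of them was at 0 in all libraries. The part of macrophages in the Lyve1 values was not tested.

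**Figure D4:**
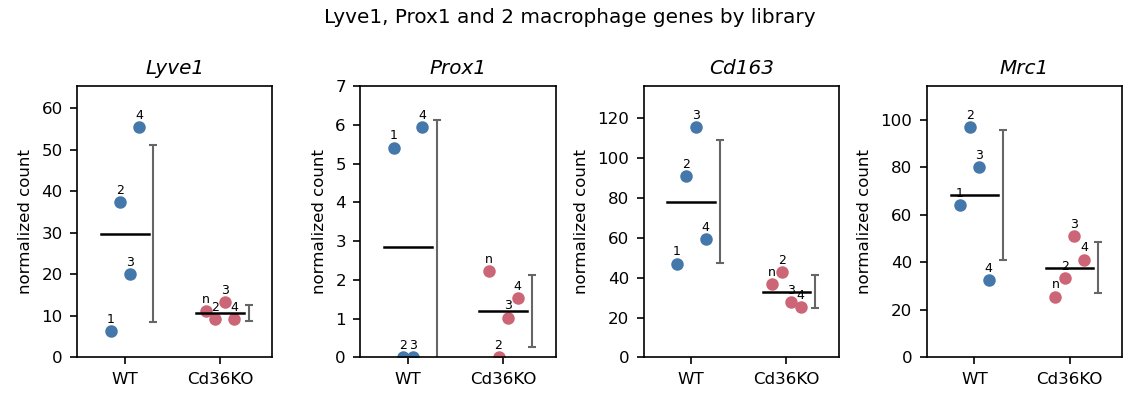
Normalized counts (y axis, from 0) of Lyve1, Prox1 and the macrophage genes Cd163 and Mrc1 in each library; numbers are replicates, n is the unnumbered Cd36KO library, black lines are means and grey bars the SD over 4 libraries, cut at 0. Lyve1 is at 9.15 to 13.3 in the Cd36KO libraries and spread from 6.32 to 55.4 in WT.

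A further 78 genes of the same pathways, listed by name, were counted in the same fit. They comprised 12 other VEGF and Tie ligands and related factors, 14 other Notch and ephrin genes and 52 other endothelial genes. Of these, 77 had counts, 53 had an adjusted p and 0 passed the threshold in either direction with DESeq2, edgeR or limma. At an unadjusted p under 0.05, 9 passed in DESeq2, 2 higher and 7 lower, or 17.0% of the 53 against 15.6% of all genes. By edgeR 7 of 53 did, against 16.1% of all its genes, and by limma 11 of the 77, against 11.5%. Their median log2 fold change was 0.04, with 28 positive and 25 negative.

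How far the genes near the threshold depended on single libraries is shown in the plot of adjusted p by library left out. In all, 6 members passed in at least 1 such fit, Egfl7 in 2 of 8 and Esam, Aqp1, Aplnr, Vegfa and Lyve1 in 1 each. No member other than these 6 passed in any of the 8 fits. Members passing were 2 of 36 without WT replicate 1, against 3.36% of all genes in that fit, 2 of 23 without WT replicate 4, against 8.71%, and 3 of 18 without Cd36KO replicate 2, against 5.86%. In the other 5 fits 0 members passed, against 1.58% of all genes without WT replicate 2, 1.19% without WT replicate 3, 1.11% without the unnumbered library, 2.62% without Cd36KO replicate 3 and 2.19% without Cd36KO replicate 4. With the white fat marker score as a covariate, the log2 fold changes of Aqp1 (-0.095), Aplnr (-0.67), Rbp7 (-0.53) and Lyve1 (0.42) took the opposite sign, and the sum of that score's markers was lowest in the 4 Cd36KO libraries and next lowest in WT replicate 1. Of its 11 markers, 5 were at 0 in every library.

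**Figure D5:**
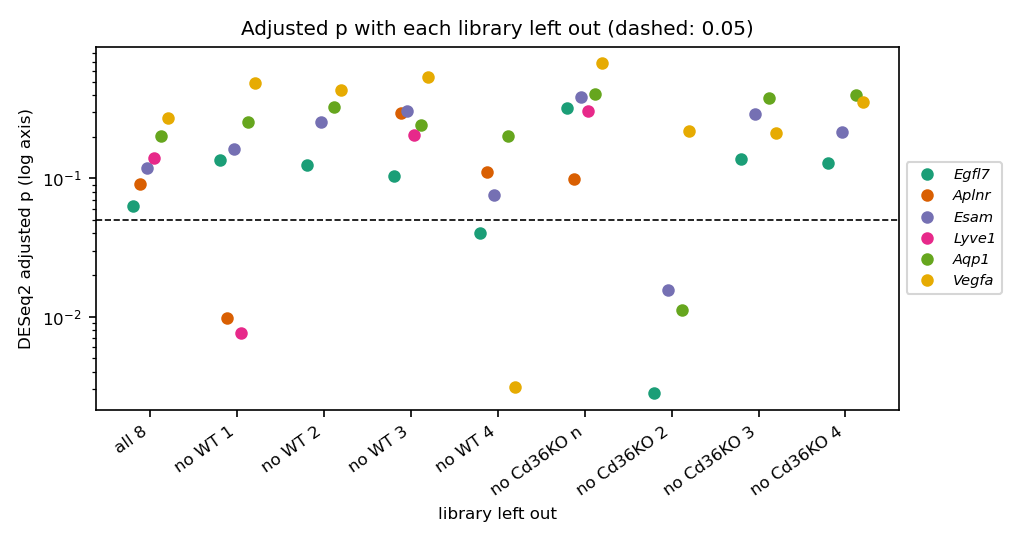
DESeq2 adjusted p (y axis, log scale) of 6 genes with all 8 libraries and with each library left out (x axis; n, the unnumbered library); the dashed line marks 0.05, and a point is missing where DESeq2 gave no adjusted p. Points fall under the line without WT replicate 1 (Aplnr and Lyve1), WT replicate 4 (Vegfa and Egfl7) and Cd36KO replicate 2 (Egfl7, Esam and Aqp1).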

How the data were processed

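BAT RNA from 4 WT and 4 Cd36KO samples was sequenced single-end by a digital mRNA-seq service. Reads were trimmed by the authors with bbduk, aligned to mm10 with STAR and turned into counts per gene with HTSeq-count, as the study's methods state, whereas the submitters' processing notes name Trimmomatic and HISAT2. The annotation, strand setting and use of molecular identifiers are not given in the sources used here. The deposited counts are whole numbers, not normalized. A second deposited table holds log2 values, which equalled log2 of the count over a size factor plus 1. Of 31053 identifiers, 31011 matched GENCODE M21 (GRCm38).

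DESeq2 1.42.0 (Wald test, median-of-ratios, default filters, genotype only; R 4.3.3) was fitted over all genes, with Benjamini-Hochberg adjustment, a threshold of 0.05 and intervals of 1.96 SE either way. The alternatives were edgeR 4.0.16 (quasi-likelihood), limma 3.58.1 on the log2 values, TMM factors, a filter of 10 counts in 4 libraries, no independent filtering, the replicate number as a block, each library left out, and muscle, white fat or brown adipocyte marker scores as covariates. The DESeq2, edgeR and limma fits, and DESeq2 with a random covariate unrelated to genotype, were run first on simulated counts. The other settings were not tested in this way.

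Values in every library are given for members past the threshold, those with a mean of at least 20 normalized counts and no overlap between groups, the 5 highest per kilobase, and Vegfa, Kdr, Pecam1 and Cdh5. Other genes named were chosen after their values were seen. Further pathway genes are named only past the threshold. The members and lists were chosen with earlier results of these data known. No pair of libraries within a group agreed within sampling noise (lowest chi-square per degree of freedom, 6.43). A figure legend of the study gives as many mice per group as there are libraries, so each library was taken as 1 animal, although the labels do not tie libraries to animals.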

Additional observations from a re-analysis of the deposited data

Results flagged for a closer look

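Among the 30 genes that averaged 20 or more normalized counts, each group of 4 libraries was searched for a highest or lowest value set apart from the others by a larger part of the group's range than Dixon's 95% critical value. This gave 3 of 60 groups, the number that chance gives at 1 in 20. Rbp7 in Cd36KO replicate 3 had 528.8 normalized counts, above the other 3 Cd36KO libraries. Vegfa in WT replicate 4 had 299.7, below the other 3 WT libraries. Nrp1, a VEGF co-receptor, had 620.6 in the unnumbered Cd36KO library, below the other 3.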

How the results depend on the processing

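The 284 genes called among all genes (137 higher, 147 lower) became 14 with edgeR (4 and 10), 8 with limma (4 and 4), 171 without independent filtering (73 higher), 188 with the muscle score (79 higher), 126 with the white fat score (15 lower) and 43 with the brown adipocyte score (10 and 33). Leaving out a library gave 70 to 498 calls, 20 to 328 higher and 31 to 236 lower. Members called higher were 0 to 3 and lower 0 to 1 across those fits, and pathway genes called 0 to 3, with 2 under the muscle score (Palmd and Fabp4). The brown adipocyte score gave 1 member higher (Aplnr, 1.78). Deviations from the group mean correlated at -0.06, 0.23 and 0.10 between WT and Cd36KO libraries sharing replicate numbers 2, 3 and 4. Libraries with unlike numbers were not compared, so whether the numbers pair the samples was not settled. The block on these 3 pairs called 32 genes higher and 189 lower, with 1 member higher (Aplnr, log2 fold change 1.64) and 1 pathway gene (Fabp5). The same 6 libraries without the block gave 48 genes higher and 214 lower, with 1 member higher, 1 member lower (Lyve1, -1.84) and 1 pathway gene.

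Log2 fold changes changed sign with the white fat score for Aqp1 (-0.095), Rbp7 (-0.53), Aplnr (-0.67) and Lyve1 (0.42), and with the brown adipocyte score for Vegfa (0.043) and Pecam1 (0.20). Pecam1 was also positive under the block (0.14) and in the same 6 libraries without it (0.14), without WT replicate 1 (0.074) and without the unnumbered library (0.015), with -0.15 to 0.074 over all libraries left out. Rbp7 was -0.043 without Cd36KO replicate 3 and up to 0.361 without another library. The causes were not tested. TMM factors and the count filter called 0 members. With each library left out in turn, 16 to 38 of the 41 members had a DESeq2 adjusted p, against 35 with all libraries.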
